A study of Rattus norvegicus with 15 samples.

Results

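Cells carrying MYC with the K323R substitution were compared with cells carrying an empty vector, gene by gene, in messenger RNA sequencing of Rat1a, an immortalized rat fibroblast line. The comparison used 6 of the 15 libraries of the study, 3 from the line that stably expressed mouse MYC K323R (R323) and 3 from the empty vector line (EV), chosen by their labels. The other lines carried wild-type mouse MYC (WT), MYC K149R (R149) or MYC K158R (R158), with 3 libraries each. All lines were grown as attached cultures in serum-containing medium, and no drug or time point was labelled. Each construct was carried by 1 stable line, so the replicates measured the spread between cultures of that line, and an effect of the construct cannot be told apart from other features of that line. The design text calls the replicates biological, without saying which of them shared a day of culture or sequencing.

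MYC is a transcription factor that pairs with MAX and binds the E-box element in promoters and enhancers. It is known for raising genes of ribosome production, nucleotide synthesis and cell division, and for lowering genes of matrix, adhesion and differentiation in fibroblasts. Its activity is tuned by acetylation of lysines, a mark written by acetyltransferases that MYC itself recruits. Arginine keeps the positive charge of lysine and cannot be acetylated in this way. In human MYC, the lysine at this position lies within the main nuclear localization signal of the protein.

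Each library gave a count for each of 32545 rat Ensembl genes. The R323 libraries held 18267503, 33464561 and 20253401 counts (replicates 1, 2 and 3), and the EV libraries held 19185530, 44652491 and 18507149 counts. Levels are given as CPM, which puts every library on the same total, after TMM scaling (trimmed mean of M values). Such levels are relative, and a change in total RNA per cell cannot be read from them. The 13676 genes with enough counts were tested. The deposited identifiers came without gene names, and 0 of them could be paired with a symbol. Genes are therefore described as groups, with 4 shown by identifier. For the same reason the level of Myc, the fibroblast identity of the cells and the markers of other cell types could not be read, so the labels were not checked against them.

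The R323 libraries lay closer to each other than to any EV library. The root mean square difference in log2 CPM over all genes tested was 0.767 to 0.928 in the 9 pairs of an R323 with an EV library. It was 0.272 to 0.559 in the 3 pairs within R323 and 0.279 to 0.501 in the 3 pairs within EV. In both lines replicates 2 and 3 were the closest pair, at 0.272 in R323 and 0.279 in EV. R323 replicate 1 differed from its sister cultures by 0.546 and 0.559, and EV replicate 1 from its sisters by 0.438 and 0.501. R323 replicate 1 was also the furthest from every EV library.

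In these relative levels, about as many genes were higher as lower in R323, and the falls were the larger changes. Of the genes tested, 4076 (29.8%) were called at an edgeR adjusted p below 0.05, with 1933 (14.1%) higher and 2143 (15.7%) lower in R323 than in EV. The genes called higher had a median log2 fold change of 0.59 and the genes called lower of -0.85. Over all genes tested the median was 0.00, and scaling between libraries tends to hold it near 0. At 2-fold or more, 269 genes were higher and 886 lower in R323 (8.45% of the genes tested together). At 4-fold or more, 79 were higher and 291 lower, at 8-fold or more 36 and 119, and at 16-fold or more 20 and 55. Falls thus made up 52.6% of all calls and between 73.3% and 78.6% of the calls in each of these 4 size classes.

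**Figure D1:**
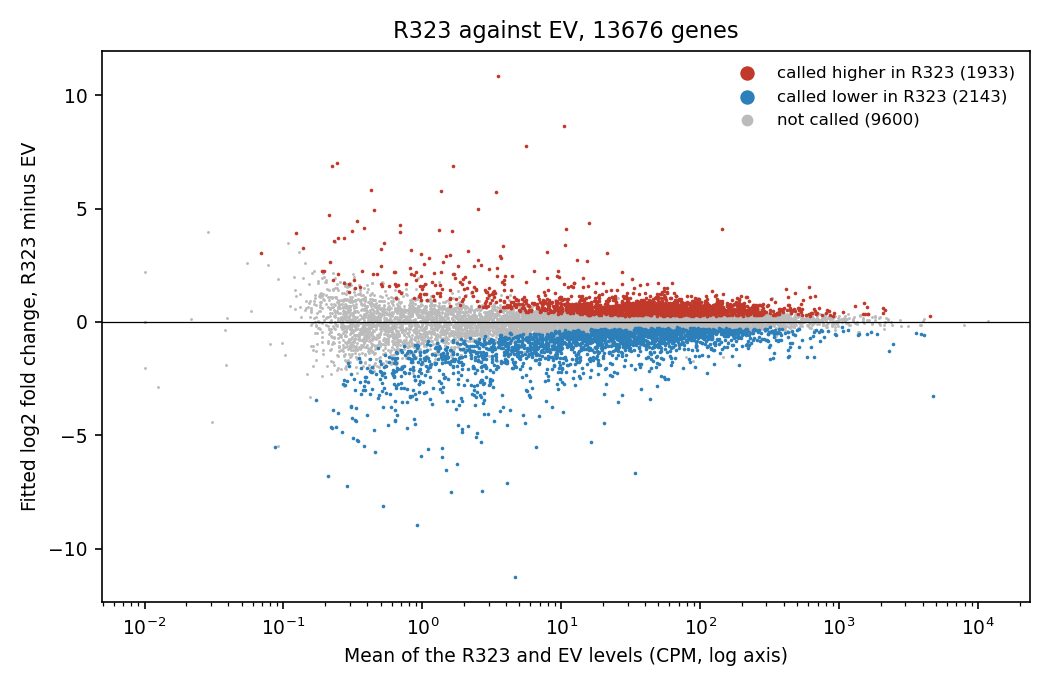
Each point is 1 of the 13676 genes tested, with the mean of its R323 and EV levels on a log axis of CPM and its fitted log2 fold change, R323 minus EV, on the vertical axis. The 1933 genes called higher form a narrow band that widens at low levels, while the 2143 genes called lower spread further from 0, most of all below about 10 CPM.

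The libraries of the lines were separated for nearly all of these genes. In 97.9% of the genes called higher and 98.7% of those called lower, all 3 R323 libraries lay beyond all 3 EV libraries. The same separation held in 49.8% of all genes tested, 3309 with R323 higher and 3503 with R323 lower. Of the called genes, 40 higher and 28 lower ones had libraries that overlapped. The calls came from these same libraries, which by itself favours separation.

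Called genes were then read in a library that had no part in calling them. Each R323 and each EV library was left out in turn, genes were called from the other 14 libraries, and the left-out library was placed on the side of whichever line it was nearer to. The remaining libraries of both lines thus made the calls and also set the sides and the distances. R323 replicate 2 lay on the R323 side in 97.0% of 1452 genes called higher and 98.2% of 1570 called lower without it, against 74.1% of all genes. R323 replicate 3 lay there in 96.8% of 1535 and 96.9% of 1624 genes, against 71.5% of all genes. R323 replicate 1 was less often on that side, in 80.5% of 1636 genes called higher and 84.1% of 1790 called lower, against 64.9% of all genes. Its median log2 distance from EV was 0.58 and -0.82 over these sets, beside 0.63 and -0.87 for its sister cultures. EV replicate 2 lay on the EV side in 98.3% of the higher and 98.3% of the lower genes (79.5% of all genes), and EV replicate 3 in 95.1% and 97.7% (74.7%). EV replicate 1 lay there in 77.7% and 83.1% (65.2%). Replicate 1 was thus the least typical culture of both lines, and it still took its own line's side in most called genes.

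The called genes made up different parts of the RNA pool in the lines. Genes called higher held 20.2% ± 0.257 of all counts in R323 libraries and 13.8% ± 0.334 in EV libraries (SD, n = 3 each). Genes called lower held 10.4% ± 0.241 in R323 and 17.5% ± 0.75 in EV. These sets were chosen from the same libraries, so the values describe the size of the shift and carry no test. The 9 libraries of the other MYC lines had no part in choosing the sets, apart from the shared count filter, scaling and estimate of spread. In them the genes called higher in R323 held 19.2% ± 0.739 of counts in WT, 20% ± 0.907 in R149 and 18.3% ± 1.18 in R158. The genes called lower held 10.8% ± 0.577, 9.84% ± 0.548 and 11.2% ± 0.423 in these lines. All 9 libraries were above all 3 EV libraries for the genes called higher (17% in R158 replicate 2 to 20.9%, against 13.6% to 14.2%) and below them for the genes called lower (9.21% to 11.7%, against 16.8% to 18.3%). For the genes called higher, R158 replicate 2 lay about midway between the R323 and EV means. The EV libraries are shared by these readings.

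**Figure D2:**
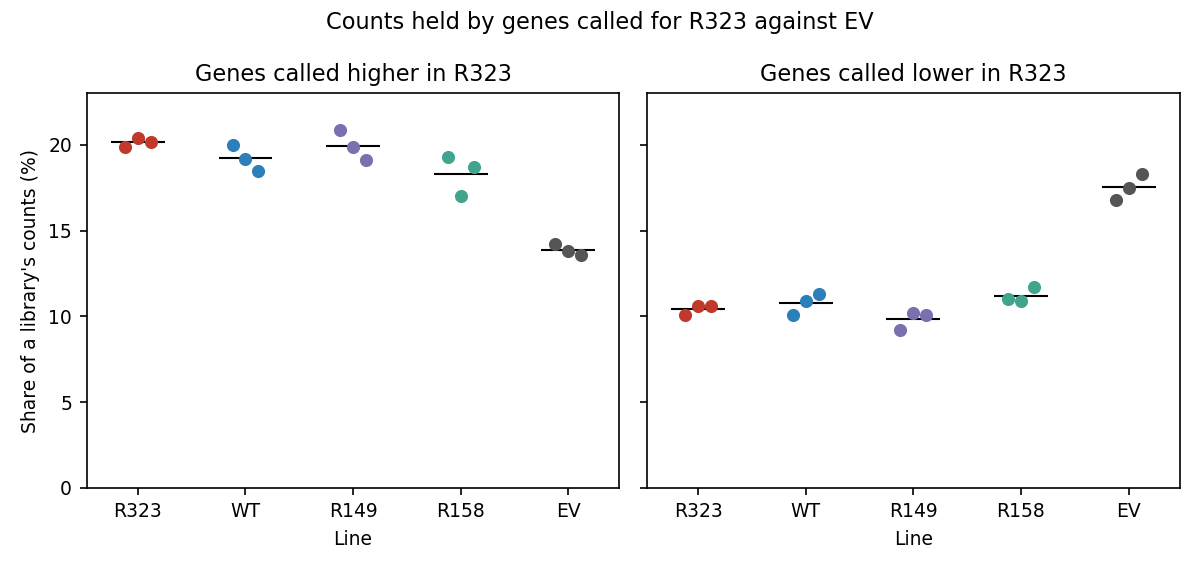
Points are libraries and lines are means of 3, and the vertical axis is the share of a library's counts in genes called higher (left) or lower (right) in R323 than in EV. The R323 libraries sit at about 20% and 10%, the EV libraries at about 14% and 18%, and the libraries of WT, R149 and R158 lie above EV on the left (17% to 20.9%) and below it on the right (9.21% to 11.7%).

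The fall in CPM was concentrated in fewer genes than the rise. Summed over the genes called lower, the difference in mean CPM was 68432 CPM, and the 100 genes with the largest differences held 52.6% of it. Over the genes called higher it was 63944 CPM, of which the 100 largest held 35.7%. A single gene accounted for 11.3% of the summed fall. This gene stood at 911, 895 and 871 CPM in R323 replicates 1 to 3, against 7150, 8461 and 10290 CPM in EV replicates 1 to 3. The groups were far apart (log2 fold change -3.27 ± 0.18 SE, edgeR adjusted p 5.47e-08). Its WT level of 827 ± 135 CPM (SD, n = 3) was not called different from R323 (adjusted p 0.996). Without it, the genes called lower held 10.3% ± 0.239 of counts in R323 and 16.6% ± 0.601 in EV. The largest rise of a single gene was smaller. It stood at 3144, 2239 and 2132 CPM in R323, against 1731, 1608 and 1523 CPM in EV (log2 fold change 0.63 ± 0.19, edgeR adjusted p 0.0185). The R323 libraries were all above the EV libraries, with replicate 1 the highest of R323.

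Rises and falls came from different parts of the range of RNA levels in the other MYC lines. Genes were put into 5 equal classes by their level in the WT, R149 and R158 libraries, which are not part of the comparison. The share called higher in R323 was 3.84% in the lowest class, with a median of 0.709 CPM. It was 8.70%, 15.2% and 20.4% in the next 3 classes and 22.5% in the highest class, with a median of 155 CPM. The share called lower was 17.8%, 21.6%, 16.3%, 12.6% and 10.1% from the lowest class to the highest. Falls of 2-fold or more were most frequent among RNAs scarce in those lines. They made up 16.4% of the lowest class and 10.3% of the next, against 0.951% of the highest class. Rises of that size made up 3.58% of the lowest class and 0.987% of the highest. The median log2 fold change of all genes in a class went with this order, at -0.25, -0.12, -0.02, 0.07 and 0.12. The median SE of the fold change was 0.504 in the lowest class and 0.129 in the highest, so small changes were harder to call in scarce RNAs. The classes rest on other MYC lines, in which a gene raised or lowered by MYC in general is itself shifted. How much this contributes was not tested. In EV the median level was 34.4 CPM for genes called higher, 23.9 CPM for genes called lower and 24.1 CPM over all genes tested. In R323 these medians were 53.7, 13.1 and 23.2 CPM.

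**Figure D3:**
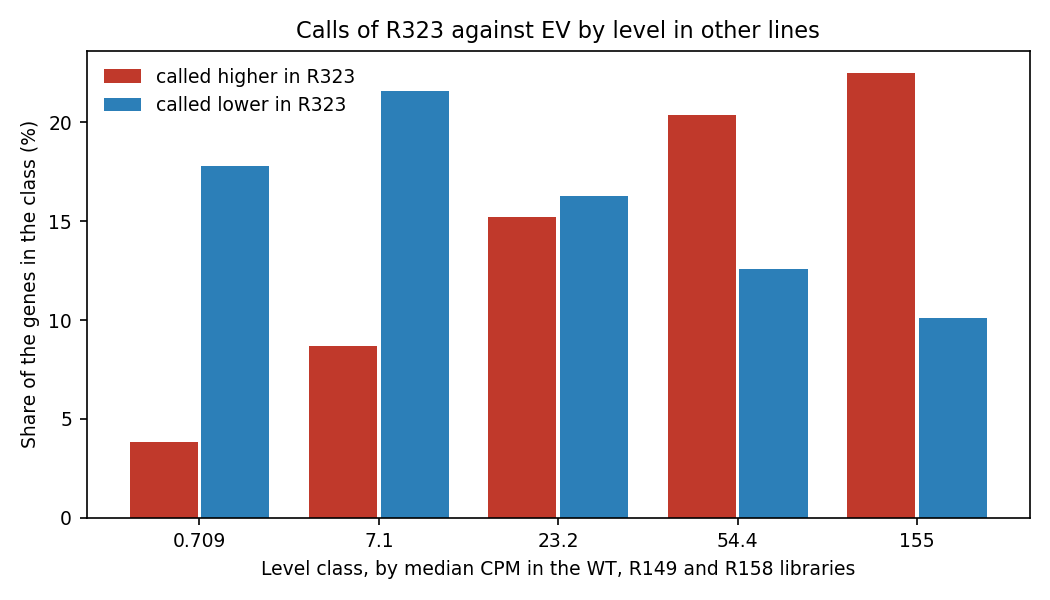
Bars give the share of genes called higher and lower in R323 than in EV, in percent, in 5 equal classes of genes ordered by their level in the 9 libraries of WT, R149 and R158. Higher calls go up from 3.84% to 22.5% along the classes, while lower calls peak at 21.6% in the second class and end at 10.1%.

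The genes with the largest changes were shown by identifier. They were the 2 largest rises and 2 largest falls among 3433 called genes whose libraries did not overlap and whose mean was at least 5 CPM in R323 or EV. No name or role is given to these identifiers in the sources used here. Since these genes were picked as extremes of R323 against EV, a difference of R323 from the other MYC lines is favoured by the choice.

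ENSRNOG00000025151 was read only in the MYC lines and most of all in R323. It stood at 6.48, 6.62 and 7.92 CPM in R323 replicates 1, 2 and 3, against 0 counts in all 3 EV libraries. A count of 3 over the EV libraries would have been 0.0356 CPM, so the level in R323 was at least 195-fold higher than in EV (edgeR adjusted p 3.82e-05). In the other MYC lines it was low, at 0.117 ± 0.0531 CPM in WT, 0.608 ± 0.502 CPM in R149 and 0.949 ± 0.335 CPM in R158 (SD, n = 3 each), with no overlap with R323. The log2 difference of R323 from these lines was 5.86 ± 0.75 for WT, 3.44 ± 0.59 for R149 and 2.93 ± 0.61 for R158 (SE). The edgeR adjusted p was 0.00113, 0.0114 and 0.0408. The difference from R149 missed the threshold without R323 replicate 3 (adjusted p 0.0538). That from R158 missed it in 7 of 19 alternatives, with adjusted p of 0.0543, 0.14 and 0.169 without R323 replicates 1, 2 and 3, 0.0733, 0.252 and 0.0676 without R158 replicates 1, 2 and 3, and 0.0507 without EV replicate 2.

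ENSRNOG00000008465 was plentiful in R323 and nearly absent from EV. It stood at 17.2, 23.7 and 21.6 CPM in R323, against 0.151, 0.0218 and 0 CPM in EV, where only 4 counts were read in all (log2 fold change 8.66 ± 0.37, edgeR adjusted p 2.62e-09). Its log2 difference was 0.31 ± 0.19 from WT, 0.11 ± 0.19 from R149 and 0.29 ± 0.19 from R158, with adjusted p of 0.845, 0.846 and 0.468.

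ENSRNOG00000018992 was not detected in R323. It had 0 counts in all 3 R323 libraries, which hold 71985465 counts together, against 8.53, 8.95 and 10.4 CPM in EV. With 3 counts taken as the limit of detection over the R323 libraries, which is 0.041 CPM, the level was at least 224-fold lower than in EV (edgeR adjusted p 3.84e-07). The other MYC lines were also below EV but kept a measurable level, with 0.843 ± 0.387 CPM in WT, 2.29 ± 0.319 CPM in R149 and 2.01 ± 0.55 CPM in R158 (SD, n = 3 each). R323 was at least 19.4-fold lower than WT, 54.4-fold lower than R149 and 49-fold lower than R158, with edgeR adjusted p of 0.000808, 4.74e-05 and 0.000149. These folds are the smaller of the ratios by summed counts and by mean CPM. The calls held in all 18 or 19 alternatives for each line.

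ENSRNOG00000001304 was nearly absent from R323 and present in every other line. It had 0, 0.0583 and 0 CPM in R323, a sum of 2 counts, against 4.59, 5.50 and 5.96 CPM in EV. The ratio of EV to R323 was 197, with a counting interval of 54.3 to 1630 (exact, 95%, counting error only), and the edgeR adjusted p was 4.75e-06. WT libraries held 3.21, 8.33 and 10.8 CPM, a range that includes the EV values, and R149 and R158 held 0.857 ± 0.281 and 2.88 ± 0.893 CPM (SD, n = 3). The ratio to R323 was 254 for WT (70.1 to 2100), 32.1 for R149 (8.75 to 267) and 97.9 for R158 (26.6 to 815), with edgeR adjusted p of 1.75e-05, 0.00834 and 0.000418. The difference from R149 missed the threshold with limma-voom (adjusted p 0.204) and without R323 replicate 3 (0.0513), and that from R158 with limma-voom (0.0673).

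**Figure D4:**
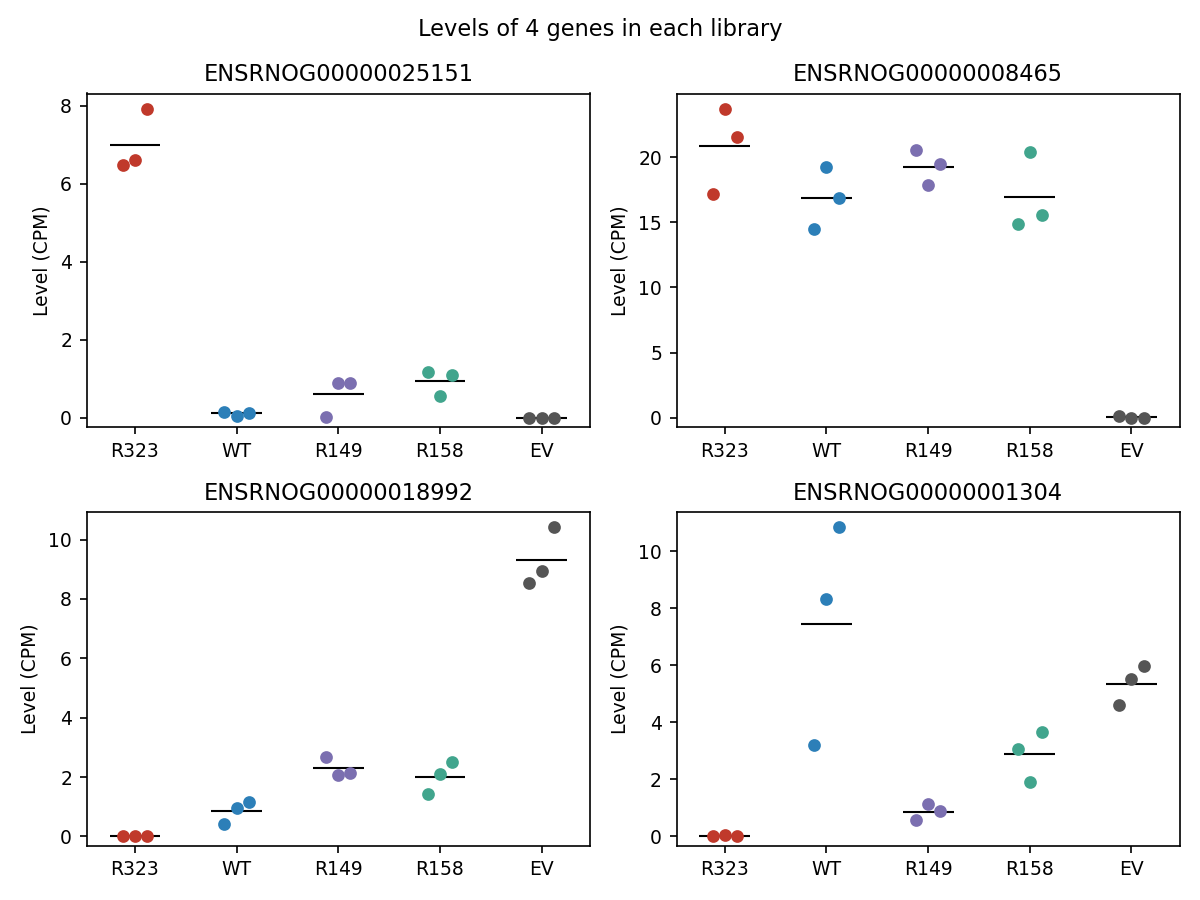
Points are libraries, short lines are means of 3, and the vertical axis of each panel is the level in CPM on a linear scale. ENSRNOG00000025151 is high in R323 libraries (6.48 to 7.92 CPM) and ENSRNOG00000008465 in all MYC lines. ENSRNOG00000018992 and ENSRNOG00000001304 are lowest in R323 (0 to 0.0583 CPM). The first of these is also low in WT (0.408 to 1.15 CPM) and the second in R149 (0.566 to 1.13 CPM).

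A few RNAs were read in EV and not at all in R323, or the reverse. Over all 32545 genes, 18 had 0 counts in the R323 libraries and at least 20 counts over the EV libraries, with a median of 25.5 and a maximum of 773 counts. In the opposite case, 6 genes had 0 counts in EV and at least 20 over the R323 libraries, with a median of 35 and a maximum of 509. Most of them held few counts, and only 5 of the 18 and 3 of the 6 had enough counts to be tested. All 8 were called, against 29.8% of all genes tested, but choosing genes at 0 counts in either line favours a call by itself. None of the 18 genes was at 0 in all 9 libraries of the other MYC lines, although 1 was at 0 in all WT, 3 in all R149 and 4 in all R158 libraries. Of the 6 genes, 3 were read in all 9 of those libraries.

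The response to K323R was set against that of each other MYC line by testing the difference between the lines, in which EV cancels. Of all genes tested, 122 (0.892%) were called between R323 and WT, 147 (1.07%) between R323 and R149, and 128 (0.936%) between R323 and R158. Among the 4076 genes called for R323 against EV, 89 (2.18%) differed from WT, 91 (2.23%) from R149 and 98 (2.40%) from R158. The R323 libraries enter both calls, which by itself favours such genes.

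Where R323 differed, it mostly lay beyond the other line, in the direction of its own change from EV. Of the 89 genes that differed from WT, 27 were raised in R323 and higher than in WT, and 51 were lowered and lower than in WT. Another 5 were raised but less than in WT, and 6 were lowered but less. Against R158 the picture was similar. There 33 genes were raised in R323 and higher than in R158, 62 were lowered and lower, 1 was raised less and 2 were lowered less. Against R149 it was mixed, with 59 genes raised and higher than in R149, 16 lowered and lower, 1 raised less and 15 lowered less. The sorting did not use the change of the other line from EV, which need not go the same way. Since genes were picked as changed in R323, a larger change in R323 is favoured by the choice, and no test of these splits is given.

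These counts rested on few cultures. Libraries of equal replicate number varied together between R323 and the other MYC lines, and a fit with that number as a block gave 246, 199 and 344 genes for WT, R149 and R158. For WT, leaving out its replicates 1, 2 and 3 gave 159, 39 and 38 genes, and leaving out R323 replicates 2 and 3 gave 39 and 36. For R149 it was 47 and 38 without R149 replicates 2 and 3, and 34 and 42 without R323 replicates 2 and 3. For R158 it was 30 without R158 replicate 2, 58 and 61 without EV replicates 2 and 3, and 17 and 26 without R323 replicates 2 and 3.

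For many of the strongly changed genes, neither a difference between R323 and another MYC line was called nor was a 2-fold difference outside the interval. Of the 1155 genes changed by 2-fold or more against EV, 64 were called different between R323 and WT. For 461 (39.9%) the 95% interval of the difference from WT lay within 2-fold in either direction, and 634 met neither condition. The interval lay within 2-fold for 530 genes (45.9%) against R149 and for 424 (36.7%) against R158, with 31 and 61 genes called. The median half-width of the interval was 0.73, 0.72 and 0.74 log2 units for WT, R149 and R158. These intervals ignore the pairing by replicate number. With the block, 140, 63 and 151 of the 1155 genes were called, the interval lay within 2-fold for 524, 597 and 479, and 515, 503 and 558 met neither condition, for WT, R149 and R158.

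R323 stood apart from all other MYC lines in 18 genes (0.132% of those tested), 10 higher and 8 lower than each of WT, R149 and R158. The same rule gave 20 genes for WT, 19 for R149 and 14 for R158. Of the 18 genes, 14 were also called in the same direction against EV, 8 higher and 6 lower in R323. In 15 genes, 9 higher and 6 lower, the 3 R323 libraries lay outside the range of all 12 other libraries. ENSRNOG00000025151 is among the higher genes, and ENSRNOG00000018992 and ENSRNOG00000001304 are among the lower ones. The 3 tests share the R323 libraries and are not independent of each other.

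The most abundant of these genes was lower in R323 than in every other library of the study. It stood at 55.5, 99.0 and 89.9 CPM in R323 replicates 1 to 3, against 303.1, 310.0 and 289.9 CPM in EV. The 9 libraries of WT, R149 and R158 held 310.6 to 382.4 CPM. Its log2 difference was -1.88 from EV, -2.0 from WT, -2.06 from R149 and -2.07 from R158, with edgeR adjusted p between 1.57e-06 and 8.98e-06. Another gene showed nearly the same pattern at a lower level. It stood at 14.3, 22.3 and 20.9 CPM in R323, against 75.8, 79.5 and 74.1 CPM in EV and 77.5 to 95.2 CPM in the other MYC lines, with a log2 difference of -1.99 from EV (adjusted p 2.89e-07). In both genes R323 replicate 1 was the lowest of the R323 libraries.

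Among the higher genes, one was highest in R323, lowest in EV and between them in the other MYC lines. It stood at 23.8, 22.0 and 21.5 CPM in R323, against 3.33, 3.36 and 3.54 CPM in EV, and between 5.11 and 12.4 CPM in the libraries of the other MYC lines. Its log2 fold change against EV was 2.72 and its difference from WT was 1.82, with edgeR adjusted p of 1.47e-06 and 0.000342. A scarcer gene stood at 7.84, 5.10 and 4.69 CPM in R323, against 1.72, 1.77 and 2.04 CPM in EV and 1.01 to 1.92 CPM in the other MYC lines (log2 difference from WT 2.17, adjusted p 0.000402). The remaining called genes on the higher side, apart from ENSRNOG00000025151, were raised by 1.33-fold to 2.63-fold over EV. These unnamed genes were chosen after their values were seen.

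Of the 4 genes that were not called against EV in the same direction, all 4 were not called against EV at all. In one of them the R323 and EV libraries overlapped and lay above the other MYC lines, with 21.0, 35.1 and 37.6 CPM in R323, 38.9, 34.1 and 42.3 CPM in EV and 11.3 to 18.1 CPM in the other MYC lines. Another stood at 6.76, 4.61 and 5.36 CPM in R323 and 12.7, 6.59 and 6.33 CPM in EV, while the other MYC lines held at least 12.5 CPM. The adjusted p of R323 against EV was 0.211 and 0.0729 for these genes, which does not show that R323 and EV were alike.

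**Figure D5:**
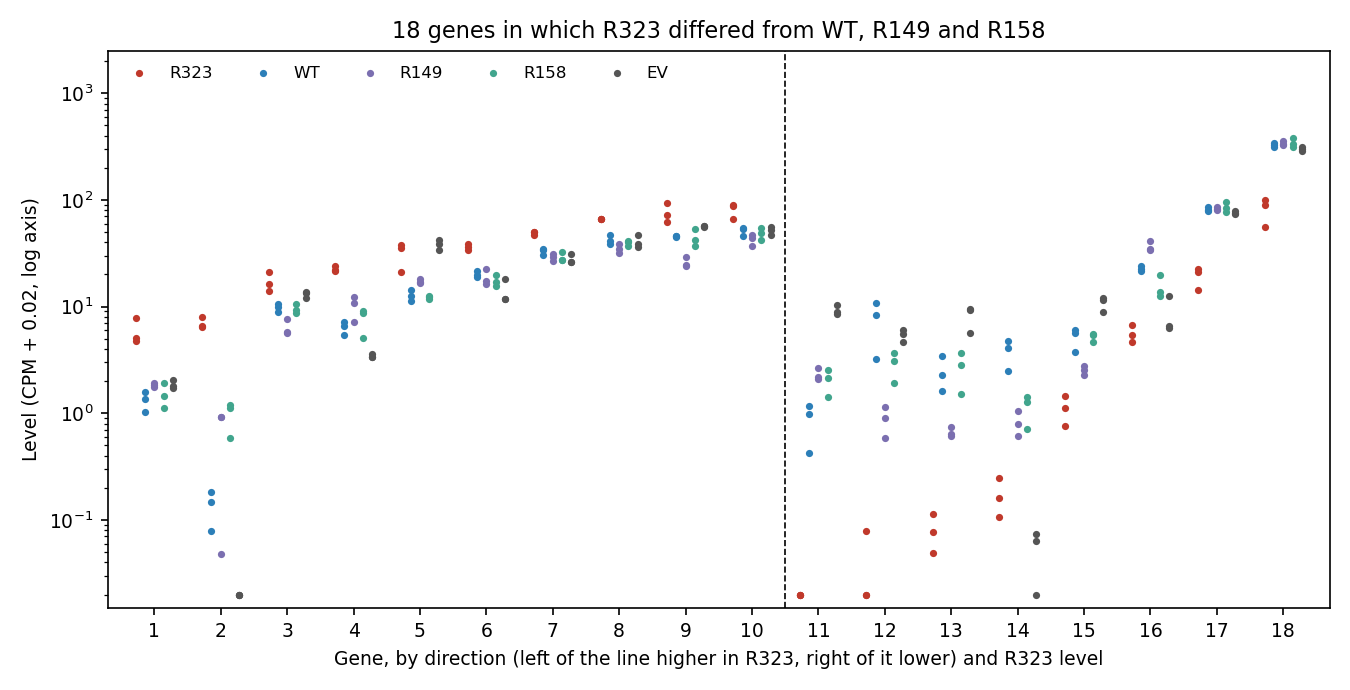
Points are the 15 libraries for each of the 18 genes in which R323 differed in the same direction from WT, R149 and R158, with the level in CPM plus 0.02 on a log axis. Genes 1 to 10 are higher and genes 11 to 18 lower in R323, and in 15 of them the 3 R323 points lie outside all other points.

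The membership of this group depended on the libraries used. All 18 genes remained with a replicate block and with DESeq2, which gave 59 and 46 genes in all. Without WT replicates 2 or 3, 11 genes met the rule in either case, and without R149 replicate 3 or R158 replicate 2, 12 did. Without R323 replicates 2 and 3 the numbers were 7 and 9. Without R323 replicate 1, 22 genes met the rule, but only 13 of the 18 were among them. With limma-voom 16 met it, 14 of them from the 18. ENSRNOG00000025151 met the rule in 13 of the 23 alternatives, the fewest of the 18 genes. Of the 18 genes, 4 met the rule in all 23 alternatives. They were the abundant pair lowered in R323, ENSRNOG00000018992, and the scarcer gene raised to 4.69 to 7.84 CPM.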

How the data were processed

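Polyadenylated RNA of 15 Rat1a libraries was sequenced after stranded dUTP library preparation, per the labels' protocols. TopHat2 2.1.0 and the build Rnor_6.0 are named in the submitters' processing notes. Which tool counted the reads, with which strand setting and annotation, is not given in the sources used here, so genes with near-identical copies or antisense partners are uncertain. The deposited values were raw counts per Ensembl gene without normalization, 1 table per library, from 13303631 to 108933235 counts each.

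Counts were filtered with filterByExpr (minimum of 10 counts), which kept 99.98% of all counts, scaled by TMM and tested with the edgeR 4.0.16 quasi-likelihood test in R 4.3.3, in 1 fit of all libraries with the line as the only term. P-values were adjusted by Benjamini-Hochberg over all genes tested, within each contrast. The coefficient of biological variation was 16.1%. DESeq2 1.42.0 and limma 3.58.1 (voom) were alternatives. Log2 CPM used a prior count of 2. Floors and counting intervals cover counting error only. The procedure was tested on simulated counts. No 2 replicates of R323 or of EV agreed within counting noise (chi-square per degree of freedom 4.24 or more). Replicates of the other lines were not checked in this way.

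The reference table carried 0 Ensembl identifiers, so 53 gene lists and marker lists could not be used, no promoter sequence could be matched, and the rule for named genes fell back on 2 rises and 2 falls by identifier. It asked for an adjusted p below 0.05, no overlap and at least 5 CPM in the higher line. The comparison, the lists and the tests were chosen with earlier results of these data known. The counts against R149 and R158, and of genes set apart, were added after the data were seen. Replicate numbers come from the labels. Deviations from the group means correlated in libraries of equal number by 0.282 to 0.54 between R323 and WT. The correlation was 0.269 to 0.369 for R149, 0.128 to 0.499 for R158 and 0.0052 to 0.0481 for EV. The main fit took no account of this pairing, nor did the main counts and adjusted p-values between MYC lines. A block by replicate number was fitted only as an alternative.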

Additional observations from a re-analysis of the deposited data

Results flagged for a closer look

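The response of 3 of the genes shown by identifier differed between R323 and other MYC lines, by a test of the difference between the lines. The genes were picked as the largest changes of R323 from EV, and the R323 libraries enter both tests, which by itself favours differences. For ENSRNOG00000025151, higher in R323, the edgeR adjusted p was 0.00113 against WT, 0.0114 against R149 and 0.0408 against R158. For ENSRNOG00000018992, with 0 counts in R323, it was 0.000808, 4.74e-05 and 0.000149 in the same order of lines. For ENSRNOG00000001304, with 2 counts in R323, it was 1.75e-05, 0.00834 and 0.000418. Over the alternatives, the adjusted p for ENSRNOG00000025151 ranged from 1.22e-12 to 0.0156 against WT, from 3.37e-06 to 0.0538 against R149 and from 0.000265 to 0.252 against R158. For ENSRNOG00000018992 the highest adjusted p over the alternatives was 0.0103, 0.000604 and 0.0026 against WT, R149 and R158. For ENSRNOG00000001304 the highest values were 0.0192, 0.204 and 0.0673. Each line is 1 stable line, so a gene that stands apart in R323 cannot be told apart from a feature of that line.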

How the results depend on the processing

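The number of genes called for R323 against EV kept within 1.5 times of 4076 in all 16 alternatives, from 2913 to 4638 with a library left out and up to 5903 with replicates 2 and 3 of every line only, an alternative added after the data were seen. The genes changed by 2-fold or more numbered 963 to 1326 with a library left out, and the higher ones among them 464, against 269, with replicates 2 and 3 only. Of the 4 genes shown by identifier, 277 of 288 values under the alternatives kept direction and side of the threshold, 11 lost the threshold and 0 reversed. The medians over all genes moved by less than 0.1 (log2) under every scaling. A fit with the replicate block called 5323 genes against EV, among them 4073 of the 4076. Equal numbers did not pair R323 with EV, since their correlation was at most 0.0481. Replicate 1 of both lines and R323 replicate 2 correlated best with their own number. EV replicate 2 and replicate 3 of both lines did not. Against WT, R149 and R158, DESeq2 gave 190, 161 and 291 genes among those called against EV, the block 246, 199 and 344, and replicates 2 and 3 only 709, 382 and 897. With a library left out these counts ranged from 36 to 159, from 34 to 110 and from 17 to 136. Genes in which R323 differed from all 3 lines numbered 46 with DESeq2, 59 with the block, 130 with replicates 2 and 3 only, and 7 to 25 with a library left out. The cause of these shifts was not tested. The alternatives for gene lists were not run, because no identifier could be paired with a symbol. Fold changes were least precise in the lowest class of level, with a median SE of 0.504, against 0.129 in the highest class.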
